A study of Homo sapiens with 22 samples.

Results

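Messenger RNA of 9 genes was followed here: the clade B serpins SERPINB1, SERPINB2, SERPINB6, SERPINB8, SERPINB9 and SERPINB10, the clade A serpin SERPINA1, and the urokinase pair PLAU and PLAUR. They were picked by symbol among the 28063 gene rows of the count files, and all 9 had a row. The values are read counts in cultured human acute myeloid leukaemia cells, given as CPM (the count divided by the library's total of reads in genes and scaled to the usual fixed total) and compared over 11 groups of 2 libraries. All 9 were among the 16794 genes that passed the filter on low counts, SERPINB2 through THP-1 alone.

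Serpins are suicide inhibitors: a protease cleaves the serpin's exposed loop, and the serpin folds around the enzyme and traps it. Clade B members mostly stay inside the cell, where they guard it against its own granule or lysosomal proteases, while alpha-1 antitrypsin (SERPINA1) is secreted and blocks neutrophil elastase. Urokinase (PLAU) turns plasminogen into plasmin, its receptor PLAUR (CD87) holds it at the cell surface, and SERPINB2, plasminogen activator inhibitor 2, blocks it in monocytes. Monocytes and macrophages are a classical source of PLAU, PLAUR and SERPINB2.

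MOLM-13, MV-4-11 and THP-1, established acute myeloid leukaemia lines that the labels mark as WT, had been kept in DMSO, the solvent, or exposed to 1 µM BRM014 over 24 or 72 h. BRM014 blocks the motor enzymes (SMARCA2 and SMARCA4) with which SWI/SNF complexes remodel chromatin. Further THP-1 cultures received 10 nM phorbol ester (PMA) for 48 h and then 24 h of rest without it, a standard way to turn them into macrophage-like cells, or 3 µM DB2313, which inhibits PU.1, a myeloid transcription factor, for 72 h. The labels do not give the time in DMSO, so each line's DMSO group stands beside both times and also serves PMA and DB2313 in THP-1. Nothing states that the 2 libraries of a group came from separate cultures, and the spread that enters the p-values is therefore that between libraries and may be technical only.

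The libraries held 15893489 to 21565666 reads in genes, so that 3 reads, the bound that a count of 0 allows, were worth 0.139 to 0.189 CPM. Reads outside annotated genes made up 12.03% to 19.17%. They moved with treatment in MOLM-13 (13.2% and 12.4% with DMSO, 18.2% and 18.4% at 72 h) and split the PMA libraries (16.02% and 12.4%). THP-1 had 16.5% and 15.8% with DMSO, 18.4% and 18.9% at 24 h of BRM014 and 19.2% and 18.8% at 72 h. Its DB2313 libraries had 17.9% and 18.7%. MV-4-11 went the other way, from 14.3% and 13.8% with DMSO to 12.03% and 12.03% at 24 h and 13.2% and 13.5% at 72 h. The part of this share in the results below was not tested. All 6 myeloid marker genes examined, PTPRC, CD33, SPI1, MPO, LYZ and CD68, were detected in every library. The T-cell list (CD3E, CD3D) summed to at most 1.96 CPM and the hepatocyte list (ALB, APOA1, TTR) to at most 4.48 CPM. The endothelial list (PECAM1, CDH5, VWF) summed to between 27.4 and 506 CPM, highest with PMA, nearly all of it PECAM1, which monocytes also express, with CDH5 at 0 in 19 libraries. The epithelial list (EPCAM, KRT8, KRT19, CDH1) summed to between 0 and 45.8 CPM, highest in DB2313, and the fibroblast list (COL1A1, COL1A2, DCN) to between 0.24 and 123 CPM, highest in THP-1 at 72 h of BRM014. KRT8, CDH1 and COL1A1 made up nearly all of these sums, while EPCAM, KRT19, COL1A2 and DCN stayed under 1 CPM. In bulk RNA, a smaller share of expressing cells and less RNA per cell cannot be told apart.

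Of the 9 genes, 6 sit in the 2 clade B serpin clusters of the genome. The coordinates are GRCh38 with GENCODE v29 gene models. On chromosome 6 the minus strand carries SERPINB1 (2832332 to 2842006), SERPINB9 (2887266 to 2903280) and SERPINB6 (2948159 to 2972165). On chromosome 18 the plus strand carries SERPINB2 (63871692 to 63903890), SERPINB10 (63897174 to 63936111) and SERPINB8 (63969925 to 64019779). SERPINA1 lies on chromosome 14 (94376747 to 94390693, minus), PLAU on chromosome 10 (73909177 to 73917497, plus) and PLAUR on chromosome 19 (43646095 to 43670547, minus).

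The chromosome 18 cluster holds 10 clade B genes, and 7 of them never reached 50 counts in any library. These 7, which include the squamous-epithelium serpins SERPINB3, SERPINB4 and SERPINB5, peaked at 24 counts (SERPINB13, 1.27 CPM, in a DB2313 library). SERPINB7 and SERPINB11 had no read in any library. The 3 genes at the far end of the cluster were the expressed ones, with highest library values of 413.9 CPM for SERPINB2, 91.1 CPM for SERPINB10 and 208 CPM for SERPINB8, each in THP-1 with DMSO.

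**Figure D1:**
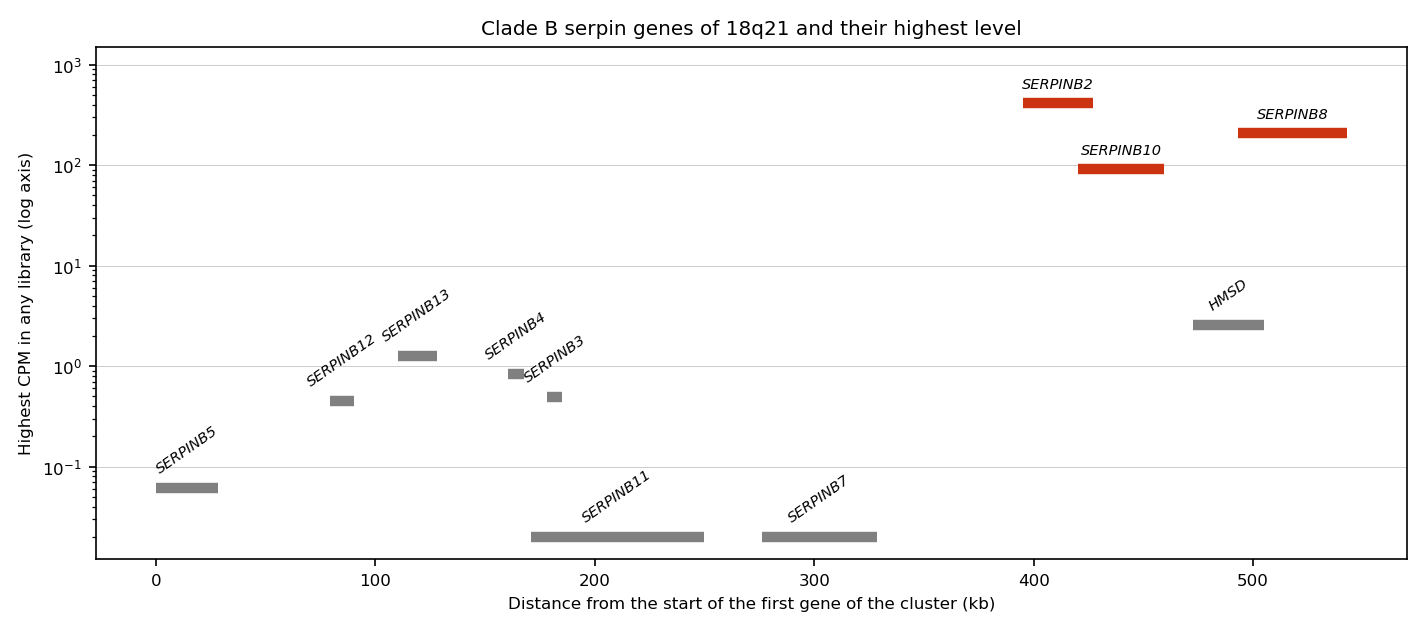
The 10 clade B serpin genes of the chromosome 18 cluster and HMSD, drawn to scale along the x axis (kb from the start of SERPINB5), with the highest CPM reached in any of the 22 libraries on a log y axis. Red bars are SERPINB2, SERPINB10 and SERPINB8, which reached 413.9, 91.1 and 208 CPM, and genes with no read are drawn at the foot of the axis.

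SERPINB2 and SERPINB10 overlap on the same strand over 6717 bases, of which 547 are exonic in both, and how reads there were assigned is not given in the sources used here. SERPINB8 shares 370 exonic bases with HMSD on its own strand, which had 0 to 47 counts. PLAU shares 916 exonic bases with C10orf55 on the other strand, which had 1 to 36 counts. Whether the counting used the strand is likewise not given.

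Sequence upstream of the RefSeq start sites (GRCh38.p14, 250 bases before each start) was on hand for 8 of the 9 genes. It was searched on both strands for the AP-1 letters TGACTCA or TGAGTCA, the PU.1 core GAGGAAG, the CRE letters TGACGTCA and the TATA box TATAAA. AP-1 letters were found for 2 genes, SERPINB8 (28 bases before the start) and PLAUR (186 bases before it), and in 4.2% of 35116 promoters of the same length. They are shown because these 2 genes moved in opposite directions with every treatment below. PU.1 letters were found for PLAU (222 bases before its second start, 11.2% of promoters). No CRE match was found (1.65% of promoters). Each stretch reads 5′ to 3′ on the gene's strand with the match in capitals. Those of SERPINB8 and PLAUR fall in bases that GENCODE counts as exon of longer transcripts of the same gene.
SERPINB8, AP-1 letters, chr18:63970043-63970069, plus: cgaacggttcTGAGTCAtctgccggaa
PLAUR, AP-1 letters, chr19:43670339-43670365, minus: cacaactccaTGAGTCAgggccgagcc
PLAU, PU.1 letters, chr10:73910900-73910926, plus: aggtgcatggGAGGAAGcacggagaat

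SERPINB2 was the most abundant member per kilobase in THP-1 with DMSO and fell steeply with BRM014 and DB2313, so its upstream sequence is printed, up to the first exonic base. Capitals mark the TATA box 30 bases before the start, which SERPINB9 also has at that distance (10.7% of promoters hold the letters). SERPINB8 holds the TATA letters too, at -142 and -140, in bases counted as its exon. Capitals also mark 2 near-matches searched for after the sequence was seen. Only these 2 strings were searched for, so other changes by 1 base, such as the lower-case tgagtaa, are left unmarked. TGAATCA, a change of AP-1 by 1 base, starts at -102 (2.53% of promoters), and TGACCTCA, a like change of CRE, starts at -188 (1.81% of promoters). TGAATCA is also found in SERPINB8, at -185. Matches of letters describe the sequence, not binding.
SERPINB2, chr18:63887455-63887699, plus: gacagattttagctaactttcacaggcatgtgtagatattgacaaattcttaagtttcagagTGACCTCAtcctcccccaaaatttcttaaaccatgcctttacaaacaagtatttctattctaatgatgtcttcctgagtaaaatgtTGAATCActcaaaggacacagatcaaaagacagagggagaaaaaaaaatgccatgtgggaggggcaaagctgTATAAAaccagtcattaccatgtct

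The SWI/SNF inhibitor moved members in both directions. A gene was called where the adjusted p of edgeR's quasi-likelihood test was under 0.05. At 24 h, 2 of the 9 rose and 1 fell in MOLM-13 (all genes tested: 22.7% rose, 23.5% fell), 1 rose and 5 fell in MV-4-11 (23.6%, 22.4%), and 2 rose and 4 fell in THP-1 (25.9%, 24.1%). At 72 h the counts were 4 and 2 in MOLM-13 (30.3%, 29.4%), 2 and 2 in MV-4-11 (28.4%, 26.1%), and for THP-1 2 and 4 (30.9%, 28.0%). PLAUR rose and SERPINB8 fell in all 6 of these comparisons, as did 7.05% and 7.61% of all genes tested. In THP-1, where all 9 had reads, their median log2 fold change was -0.54 at 24 h and -0.91 at 72 h, beside 0.04 and 0.06 for all genes. The middle gene was SERPINB10 at 24 h and, at 72 h, SERPINB9, which had only 13 reads against 24 and did not pass (adjusted p = 0.309). No median is given for the other lines, where some members had hardly any reads.

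**Figure D2:**
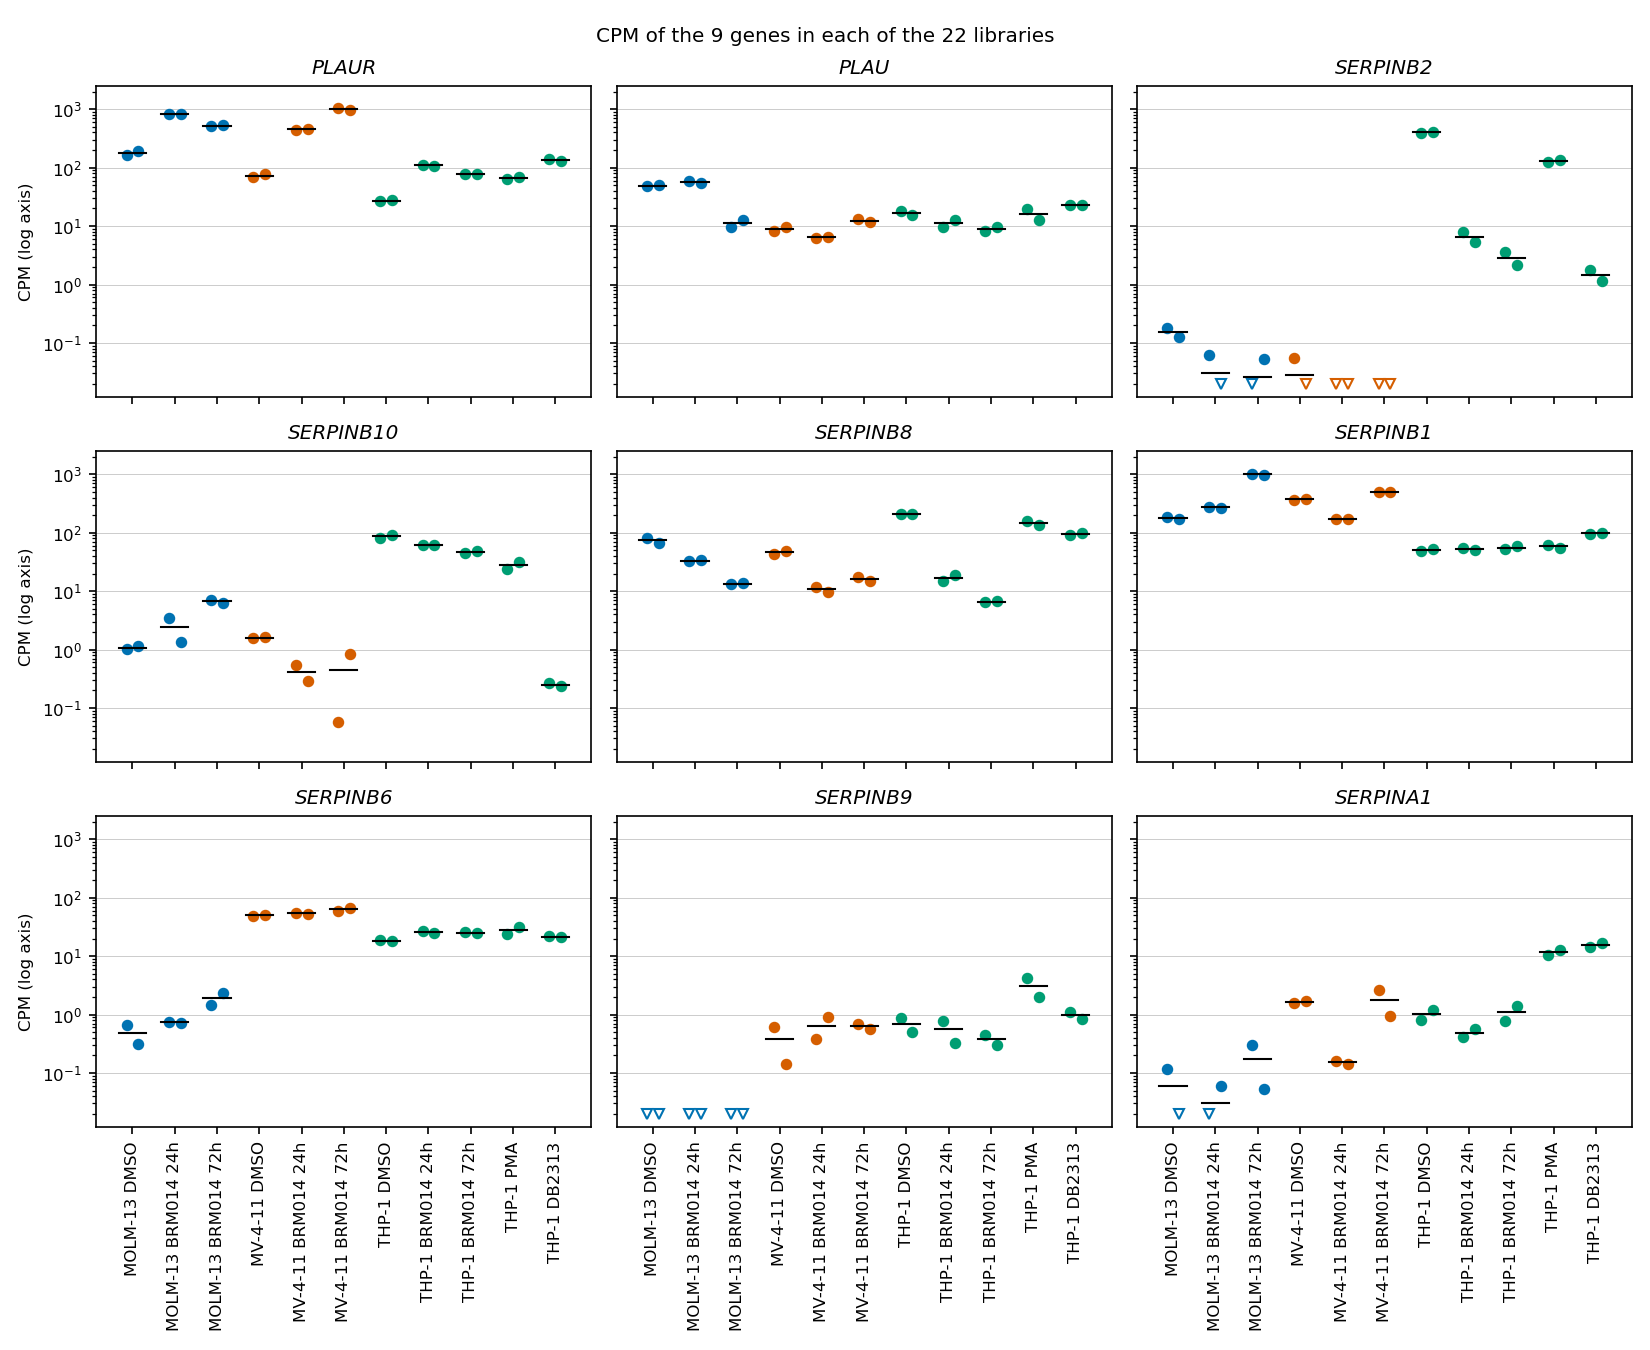
CPM of each gene on a shared log axis in all 22 libraries, 2 points per group with a black bar at their mean, coloured by line (blue MOLM-13, orange MV-4-11, green THP-1); open triangles at the foot are libraries with 0 reads. SERPINB2 is at or near 0 outside THP-1, SERPINB9 is at 0 in all 6 MOLM-13 libraries, and PLAUR with BRM014 lies above the DMSO libraries of each line.

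The receptor PLAUR was at 164 and 195 CPM in MOLM-13 with DMSO, at 829 and 838 CPM after 24 h of BRM014 and at 515 and 528 CPM after 72 h. In MV-4-11 the DMSO libraries had 69.8 and 76.7 CPM, the 24 h libraries 443 and 465 CPM, and the 72 h libraries 1034 and 977 CPM. THP-1 had 27.1 and 27.4 CPM with DMSO, 109.9 and 109 CPM at 24 h and 77.8 and 78.2 CPM at 72 h. No treated library overlapped the DMSO libraries of its line. The log2 fold changes at 24 h were 2.09 (standard error, SE, 0.09; adjusted p = 1.25e-13) in MOLM-13, 2.56 (SE 0.09; 8.91e-15) in MV-4-11 and 1.96 (SE 0.09; 1.08e-12) in THP-1.

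The size of the rise already differed between lines at 24 h (F test between lines, adjusted p = 0.00108). By 72 h the lines had parted further. PLAUR stood at 1.35 (SE 0.08; adjusted p = 1.91e-11) above DMSO on the log2 scale in MOLM-13, at 3.72 (SE 0.09; 2.27e-17) in MV-4-11 and at 1.43 (SE 0.09; 6.33e-11) in THP-1. Between 24 and 72 h it fell in MOLM-13 (log2 change -0.74, SE 0.08, adjusted p = 2.94e-07) and THP-1 (-0.53, SE 0.09, 9.95e-05) and rose in MV-4-11 (1.16, SE 0.08, 9e-10). PMA and DB2313 also raised PLAUR. PMA libraries had 64.0 and 68.0 CPM (log2 fold change 1.36, SE 0.09, 3.95e-10) and DB2313 libraries 141 and 129.8 CPM (2.24, SE 0.09, 7.25e-14), both clear of the THP-1 DMSO libraries.

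The ligand did not follow its receptor. PLAU, the protease that PLAUR anchors, had 47.7 and 50.02 CPM in MOLM-13 with DMSO and 58.2 and 53.7 CPM at 24 h (log2 fold change 0.07, SE 0.16, adjusted p = 0.792). It then fell to 9.74 and 12.9 CPM at 72 h (-2.30, SE 0.17, 3.51e-10), below every other MOLM-13 library, while PLAUR was still above its DMSO level. In MV-4-11, PLAU had 8.28 and 9.49 CPM with DMSO, 6.27 and 6.51 CPM at 24 h (-0.55, SE 0.19, 0.0253) and 13.0 and 11.6 CPM at 72 h (0.41, SE 0.18, 0.0698). The fall at 24 h is small and lost its call when either 24 h library (adjusted p = 0.0973 and 0.0827) or DMSO replicate 2 (0.169) was left out, and with scaling by library size alone (0.0566). From 24 to 72 h PLAU rose in MV-4-11 (0.96, SE 0.19, 0.000439) and fell in MOLM-13 (-2.37, SE 0.17, 8.85e-10).

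In THP-1, PLAU had 17.8 and 15.6 CPM with DMSO, 9.51 and 12.8 CPM at 24 h (log2 fold change -0.63, SE 0.18, adjusted p = 0.00585) and 8.35 and 9.503 CPM at 72 h (-0.99, SE 0.18, 0.000103). The 24 h call was lost without 24 h replicate 1 (0.0957) or DMSO replicate 1 (0.0512). PMA libraries had 19.6 and 12.5 CPM, on both sides of DMSO (0.03, SE 0.17, 0.928). DB2313 libraries had 23.4 and 22.7 CPM, above both DMSO libraries, but the call (0.39, SE 0.17, 0.0491) was lost under 7 of the alternative settings. So THP-1 cells with BRM014 had more PLAUR and less PLAU message than with DMSO at both times.

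**Figure D3:**
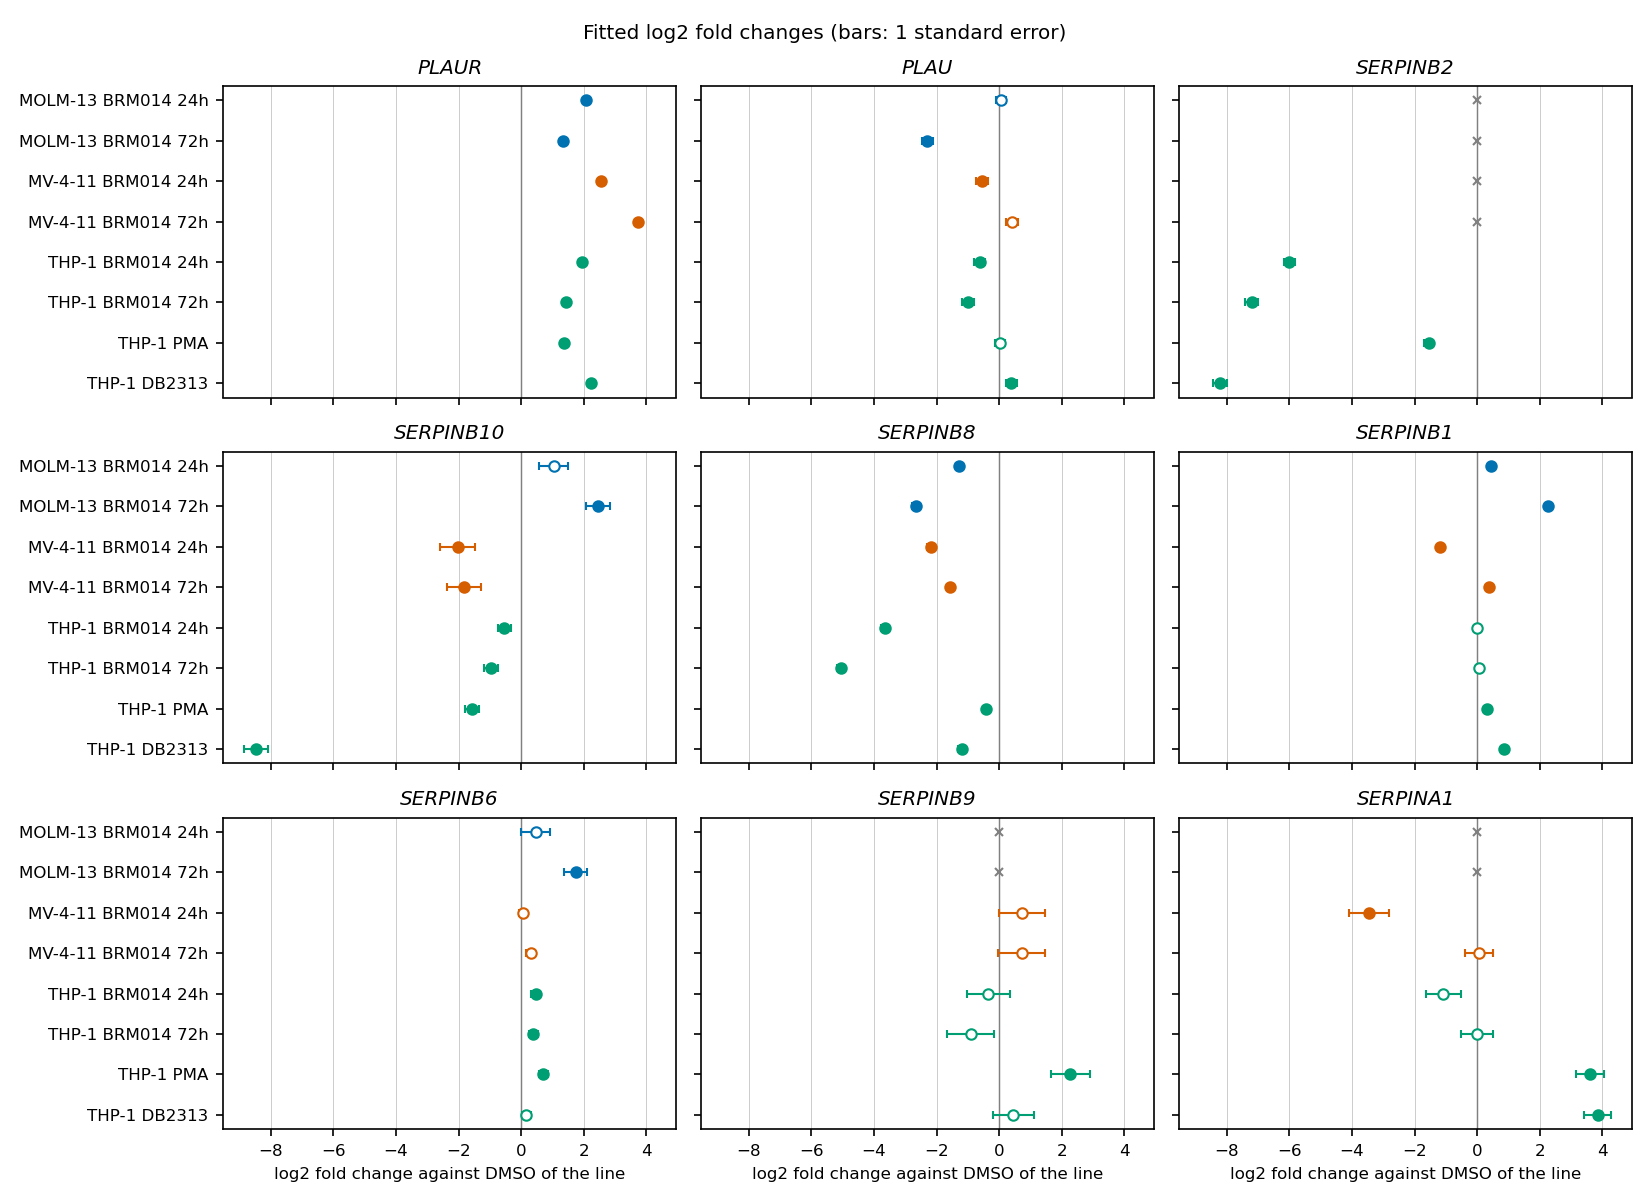
Fitted log2 fold changes against the DMSO group of the same line (x axis) for each gene, with bars of 1 standard error; filled points passed the test at an adjusted p under 0.05, open points did not. Grey crosses at 0 mark comparisons with too few reads for a fold, and bars shorter than the point are hidden behind it. PLAUR points all lie right of 0 and SERPINB8 points all lie left of it.

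SERPINB8, an intracellular inhibitor of furin-like proteases, fell wherever it was compared with DMSO. MOLM-13 had 81.2 and 66.6 CPM with DMSO, 32.9 and 33.9 CPM at 24 h (log2 fold change -1.27, SE 0.11, adjusted p = 1.16e-08) and 13.2 and 13.5 CPM at 72 h (-2.66, SE 0.12, 1.6e-13). MV-4-11 had 42.6 and 49.4 CPM with DMSO, 11.6 and 9.74 CPM at 24 h (-2.19, SE 0.13, 1.87e-11) and 17.5 and 15.1 CPM at 72 h (-1.56, SE 0.12, 7.06e-10). THP-1 began highest, at 208 and 206 CPM, and fell to 15.1 and 19.0 CPM at 24 h (-3.65, SE 0.12, 6.16e-15) and 6.41 and 6.81 CPM at 72 h (-5.05, SE 0.14, 1.36e-16). The treated libraries of each line lay below all of its DMSO libraries. From the highest group of the 3 lines with DMSO, THP-1 became the lowest at 72 h.

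The other treatments of THP-1 lowered SERPINB8 less. PMA libraries had 158 and 136 CPM (log2 fold change -0.41, SE 0.10, adjusted p = 0.00408; 0.0534 when only the PMA and DMSO libraries were fitted), and DB2313 libraries had 92.6 and 97.8 CPM (-1.20, SE 0.11, 4.67e-09). At 72 h, BRM014 was 3.86 below DB2313 on the log2 scale (SE 0.13, 4.24e-15). FURIN, the protease, rose with BRM014 in every line, from 65.2 to 252 CPM in MOLM-13, from 33.7 to 122 CPM in MV-4-11 and from 95.6 to 188 CPM in THP-1 at 24 h. With DB2313 it rose to 314 CPM (1.64, 3.11e-13).

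**Figure D4:**
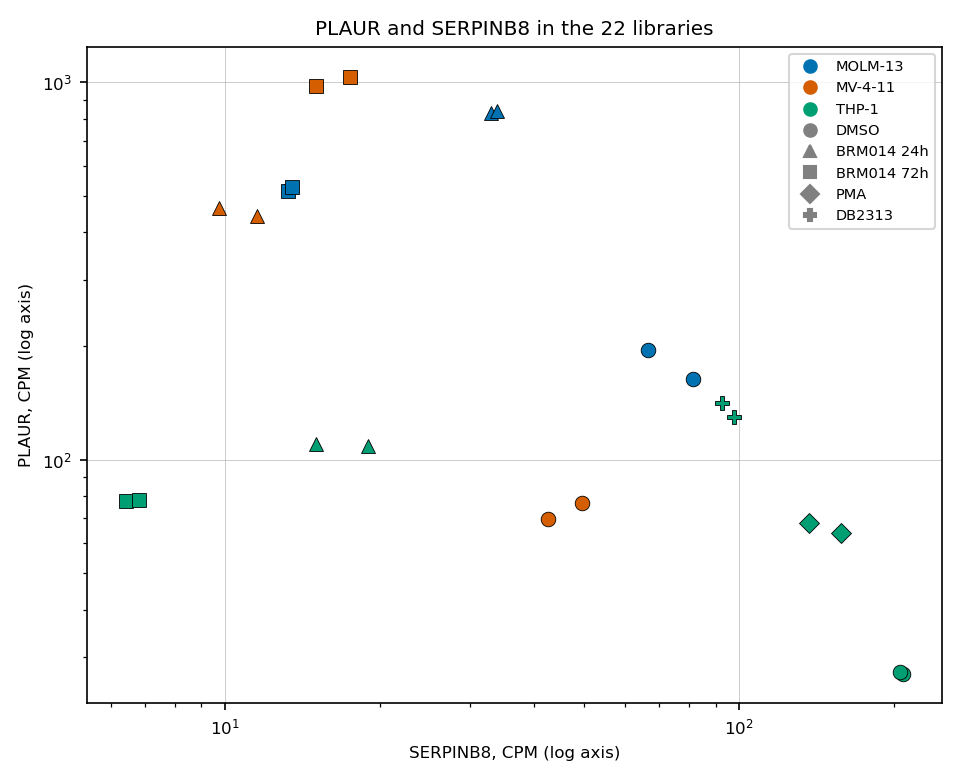
PLAUR against SERPINB8 in the 22 libraries, both in CPM on log axes, with colour for the line and shape for the treatment. Within each line the DMSO circles lie to the lower right of the BRM014 triangles and squares; over the 11 group means the correlation of log2 CPM was -0.50, which mixes differences between lines and treatments.

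SERPINB2 was a THP-1 message. It had 395 and 413.9 CPM there with DMSO, and no more than 5 counts per group in MOLM-13 and MV-4-11, where no fold is given. With BRM014 it fell to 7.95 and 5.24 CPM at 24 h (log2 fold change -5.99, SE 0.18, adjusted p = 1.82e-14) and to 3.59 and 2.15 CPM at 72 h (-7.21, SE 0.20, 2.8e-15). The DB2313 libraries had 1.74 and 1.13 CPM, from 33 and 24 reads (-8.22, SE 0.22, 1.63e-15). PMA, which takes THP-1 towards macrophages, also lowered it, to 127 and 134 CPM (-1.54, SE 0.14, 6.9e-08). The order of the THP-1 groups was DMSO, PMA, BRM014 24 h, BRM014 72 h and DB2313, with no overlap between neighbours.

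SERPINB10 (bomapin), a nuclear serpin of blood progenitor and myeloid cells, lies just downstream and overlaps SERPINB2. In THP-1 it fell about as much as SERPINB2 with PMA and with DB2313, but far less with BRM014. THP-1 had 81.7 and 91.1 CPM with DMSO, 61.5 and 60.8 CPM at 24 h and 44.7 and 49.4 CPM at 72 h. The 72 h libraries were lower than DMSO (log2 fold change -0.96, SE 0.21, adjusted p = 0.00057), and so were the 24 h libraries (-0.54, SE 0.21, 0.0352), a call lost when any of the 4 libraries was left out (0.0682 to 0.194). PMA lowered it to 23.7 and 31.3 CPM (-1.56, SE 0.22, 8.43e-06). With DB2313 only 5 reads remained in each library, 0.264 and 0.236 CPM (-8.47, SE 0.38, 2.3e-13). BRM014 at 72 h thus stood 7.51 above DB2313 on the log2 scale for SERPINB10 (SE 0.39, 1.85e-12), but only 1.01 above it for SERPINB2 (SE 0.31, 0.00975).

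That last call for SERPINB2 rests on 57 reads in DB2313 and was lost without BRM014 72 h replicate 1 (0.59, adjusted p = 0.211), without DB2313 replicate 2 (0.70, 0.123) or in a fit of those groups alone (0.0533). SERPINB2 and SERPINB10 were also summed as 1 gene, which does not restore reads of the shared stretch that neither count may hold. In THP-1 the sum gave log2 fold changes of -2.90 at 24 h, -3.38 at 72 h and -8.27 with DB2313. With BRM014 it held mostly SERPINB10 reads (2489 against 265 at 24 h, 1615 against 100 at 72 h). The sum is therefore no check on the SERPINB2 folds. The difference between BRM014 at 72 h and DB2313 was then 4.88.

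Outside THP-1, SERPINB10 was low. In MOLM-13 it had 1.01 and 1.13 CPM with DMSO, 3.48 and 1.34 CPM at 24 h (log2 fold change 1.04, SE 0.45, adjusted p = 0.0672) and 7.07 and 6.28 CPM at 72 h (2.45, SE 0.38, 9.92e-06). In MV-4-11 it had 1.56 and 1.63 CPM with DMSO, 0.54 and 0.285 CPM at 24 h (-2.03, SE 0.55, 0.00479) and 0.0582 and 0.831 CPM, from 1 and 16 reads, at 72 h (-1.82, SE 0.55, 0.0078). It therefore rose in MOLM-13 and fell in MV-4-11 and THP-1 at 72 h, and the test between lines passed (2.8e-06). The MV-4-11 values hang on single libraries: -0.99 (0.112) without 72 h replicate 1, -4.68 without 72 h replicate 2, and -1.61 (0.0666) at 24 h without replicate 2.

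SERPINB1 protects myeloid cells from their own neutrophil elastase, cathepsin G and proteinase 3. MOLM-13 had 189 and 175 CPM with DMSO, 276 and 263 CPM at 24 h (log2 fold change 0.45, SE 0.07, adjusted p = 1.89e-05) and 1004 and 987 CPM at 72 h (2.26, SE 0.07, 4.76e-16). In MV-4-11 the direction turned with time: 365 and 376 CPM with DMSO, 169 and 172 CPM at 24 h (-1.19, SE 0.07, 2.41e-11), then 501 and 502 CPM at 72 h (0.38, SE 0.07, 7.06e-05). None of the 3 pairs of libraries overlapped another. The step from 24 to 72 h was 1.82 in MOLM-13 (SE 0.07, 1.1e-13) and 1.57 in MV-4-11 (SE 0.07, 8.74e-13).

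THP-1 held SERPINB1 at a lower level. DMSO libraries had 48.4 and 52.2 CPM, 24 h libraries 54.5 and 49.9 CPM (log2 fold change 0.01, SE 0.07, adjusted p = 0.958) and 72 h libraries 53.1 and 58.0 CPM (0.06, SE 0.07, 0.536), and the 24 h pair overlapped both of the others, while the 72 h pair lay just above DMSO. PMA libraries had 61.9 and 55.4 CPM (0.31, SE 0.07, 0.00271; 0.13 in a fit of PMA and DMSO alone). DB2313 libraries were highest of the line, at 96.3 and 97.3 CPM (0.87, SE 0.07, 2.18e-09).

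The 3 neutrophil proteases did not move together. ELANE (neutrophil elastase) rose in MOLM-13, from 69.9 and 143 CPM to 340 and 144 CPM at 24 h (log2 fold change 1.06, adjusted p = 0.0376) and 443 and 387 CPM at 72 h (1.77, 0.000806), and fell with PMA (-1.94, 0.00577). CTSG (cathepsin G) fell in 5 of the 6 BRM014 comparisons, by 1.91 in MOLM-13, 1.70 in MV-4-11 and 1.68 in THP-1 at 72 h, and by 2.04 with PMA and 2.21 with DB2313. PRTN3 (proteinase 3) also fell in 5 of the 6, from 364 and 199 CPM to 53.2 and 49.2 CPM at 72 h in MOLM-13 (-2.65, 0.000117). It did not pass in MV-4-11 at 24 h, where its libraries had 2.22 and 26.9 CPM. In MOLM-13 at 72 h, SERPINB1 and ELANE were thus higher, and CTSG and PRTN3 lower, than with DMSO.

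**Figure D5:**
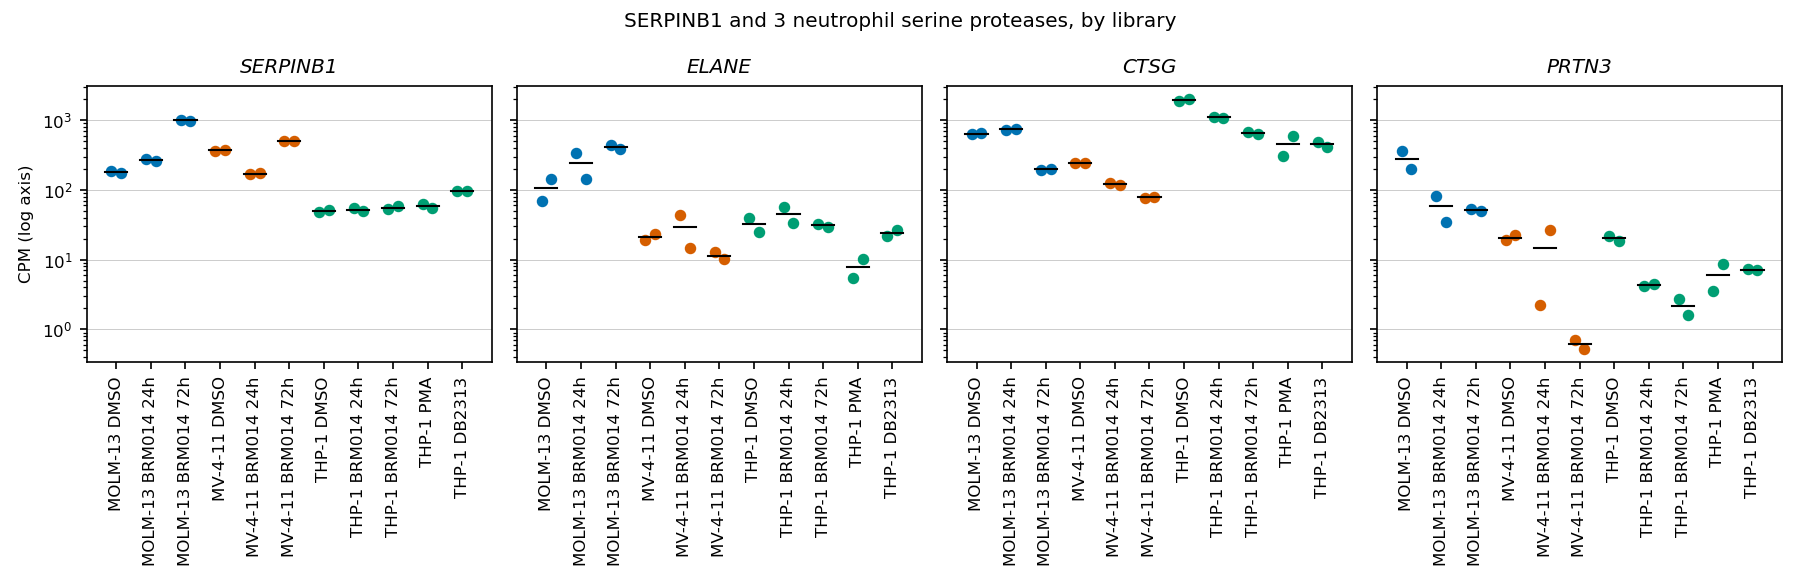
SERPINB1 and 3 of its target proteases in CPM on a shared log axis, 2 libraries per group with a bar at the mean, coloured by line. SERPINB1 peaks in MOLM-13 at 72 h (1004 and 987 CPM), where ELANE is also high and CTSG and PRTN3 lie below their DMSO libraries; the ELANE and PRTN3 pairs are often wide apart.

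SERPINB6, an intracellular inhibitor of cathepsin G, differed mainly by line. DMSO libraries had 49.3 and 50.1 CPM in MV-4-11, 18.6 and 17.96 CPM in THP-1 and 0.652 and 0.315 CPM (11 and 5 reads) in MOLM-13. In MOLM-13 it rose by 72 h to 1.43 and 2.34 CPM (log2 fold change 1.74, SE 0.36, adjusted p = 0.000314; 2.34 without DMSO replicate 1), which is still far below the other lines. In THP-1 it had 27.1 and 24.99 CPM at 24 h (0.47, SE 0.14, 0.0102) and 25.65 and 25.01 CPM at 72 h (0.39, SE 0.14, 0.0264). The THP-1 calls are not firm: the first was lost without 24 h replicate 1 (0.0775) or DMSO replicate 2 (0.0661), the second without any of its 4 libraries (0.0691 to 0.115). In MV-4-11 neither time passed (0.05 and 0.30, 0.827 and 0.0621). PMA libraries had 24.3 and 32.04 CPM (0.71, SE 0.14, 0.000506; 0.47 without PMA replicate 2), and DB2313 did not pass (0.16, 0.352).

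SERPINB9, which blocks granzyme B, had no read in any of the 6 MOLM-13 libraries, and at most 19 in any MV-4-11 library. Among the comparisons with DMSO, only PMA gave a call: 14 and 10 reads with DMSO and 87 and 38 with PMA, or 0.877 and 0.495 against 4.24 and 2.002 CPM (log2 fold change 2.28, SE 0.62, adjusted p = 0.00849). It was lost without PMA replicate 1 (1.67, 0.0837) or DMSO replicate 2 (1.91, 0.0884). GZMB itself had at most 16 reads in a library.

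SERPINA1 rose with both agents given to THP-1 alone. It had 0.814 and 1.19 CPM with DMSO, 10.6 and 12.7 CPM with PMA (log2 fold change 3.60, SE 0.44, adjusted p = 1.73e-06) and 14.1 and 16.9 CPM with DB2313 (3.85, SE 0.44, 1.96e-07), with no overlap. BRM014 libraries had 0.418 and 0.556 CPM at 24 h (-1.08, SE 0.55, 0.113) and 0.774 and 1.41 CPM at 72 h (0.01, SE 0.51, 0.999). In MV-4-11 it went from 28 and 36 reads with DMSO to 3 and 3 at 24 h (-3.45, SE 0.64, 0.000151) and back to 46 and 18 at 72 h (0.06, SE 0.45, 0.975). That return was a called rise from 24 h (3.51, SE 0.64, 0.000178; 2.58 without 72 h replicate 1). MOLM-13 libraries had 0 to 6 reads.

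Over the 9 genes, PMA gave 5 rises and 3 falls (all genes tested: 18.9% and 17.1%) and DB2313 gave 4 rises and 3 falls (35.9% and 29.5%). PLAUR, SERPINB1 and SERPINA1 rose, and SERPINB2, SERPINB8 and SERPINB10 fell, with both. The PMA libraries lay further apart than those of any other group (chi-square per degree of freedom 30.9, against 3.16 to 11), while the fit shares its spread over all groups. With only the PMA and DMSO libraries fitted, SERPINB1 (adjusted p = 0.13) and SERPINB8 (0.0534) lost their PMA calls, and 3038 genes were called in place of 6057. The median log2 fold change of the 9 was 0.31 with PMA and 0.39 with DB2313, beside -0.02 and 0.14 for all genes. The middle gene was SERPINB1 with PMA and PLAU with DB2313, whose call was lost under 7 of the alternative settings. The 2 comparisons share their DMSO libraries. Set against DB2313 directly, BRM014 at 72 h differed in 7 of the 9 (61.3% of all genes tested): SERPINB2 and SERPINB10 were higher with BRM014, and SERPINB1, SERPINB8, SERPINA1, PLAU and PLAUR lower. SERPINA1 was 3.84 lower (SE 0.44, adjusted p = 2.47e-07), PLAU 1.38 lower (SE 0.18, 1.39e-06), and PLAUR and SERPINB1 0.81 lower each (SE 0.09 and 0.07). The 2 agents were given at different doses. Whether the DB2313 and DMSO libraries were made together is not labelled.

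Between 24 and 72 h of BRM014, 6 of the 9 changed in MOLM-13 (43.5% of all genes tested), 5 in MV-4-11 (35.4%) and 3 in THP-1 (32.7%). SERPINB8 went on falling in MOLM-13 (log2 change -1.38, SE 0.12, adjusted p = 1.73e-08) and THP-1 (-1.41, SE 0.14, 3.61e-07), and rose in MV-4-11 (0.63, SE 0.13, 0.000852). In THP-1, SERPINB2 also kept falling (-1.21, SE 0.24, 0.000774). Its sum with SERPINB10, mostly SERPINB10 reads in these groups, changed by -0.48. In MOLM-13, SERPINB6 (1.27, SE 0.33, 0.00332; 0.89 and 0.0715 without 72 h replicate 2) and SERPINB10 rose (1.41, SE 0.32, 0.00119; 0.87 and 2.26 without 1 or the other 24 h library). All 5 changes in MV-4-11, of SERPINB1, SERPINB8, SERPINA1, PLAU and PLAUR, were rises.

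The lines differed before treatment. With DMSO, all 9 genes differed between lines (78.9% of all genes tested). SERPINB2 passed the filter through THP-1 alone, so its call here was not independent of the filter. SERPINB2, SERPINB9 and SERPINA1 differed through lines at or near 0, and SERPINB6 had only 16 reads over the MOLM-13 DMSO libraries. PLAUR, PLAU and SERPINB6 were each lowest in a different line: THP-1, MV-4-11 and MOLM-13. The response to BRM014 differed between lines for 5 of the 9 at 24 h (43.5% of all genes tested) and 6 of the 9 at 72 h (52.9%): PLAU, PLAUR, SERPINB1, SERPINB8 and SERPINB10 at both times, and SERPINB6 at 72 h. For PLAUR the direction was shared and the size differed. For SERPINB1 at 24 h (a rise in MOLM-13, a fall in MV-4-11) and SERPINB10 at 72 h the called directions differed as well. The PLAU difference at 24 h (adjusted p = 0.0375) was lost with a replicate block (0.0676) and without any of 9 of the 12 libraries, and the SERPINB6 difference at 72 h (0.0133) was lost without MOLM-13 BRM014 72 h replicate 2 (0.119) or MOLM-13 DMSO replicate 2 (0.149).

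Levels were also divided by kilobases of exon, taking the exons of all GENCODE transcripts of a gene together. This sets different genes side by side only roughly, since that length (2700 bases for SERPINB10, 13201 for SERPINB6) can exceed the message present. By this measure SERPINB2 led in THP-1 with DMSO (147 CPM per kb), ahead of SERPINB8 (35.3), SERPINB10 (31.99), SERPINB1 (16.2) and PLAUR (6.12). At 72 h of BRM014 the leaders there were SERPINB1 (17.9), PLAUR (17.5) and SERPINB10 (17.4), too close to rank, with SERPINB2 at 1.04. In MOLM-13 and MV-4-11, SERPINB1 and PLAUR held the first 2 places in all 6 groups. SERPINB1 led in both with DMSO (58.7 and 119.7 CPM per kb), and PLAUR led in MV-4-11 at both times of BRM014 (102 and 226).

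Of 24 other genes of the plasminogen system, 20 could be tested. With BRM014 at 72 h, 7 rose and 3 fell in MOLM-13, against 9 and 4 for MV-4-11 and 10 and 3 for THP-1. At 24 h the counts in that order were 3 and 4, 4 and 7, and 4 and 5. Of all genes tested at 72 h, 30.3% rose and 29.4% fell in MOLM-13, 28.4% and 26.1% for MV-4-11, and 30.9% and 28.0% for THP-1. At 24 h these shares lay between 22.4% and 25.9% each way. The list's median log2 fold change at 72 h was 0.35 in MOLM-13, 0.51 in MV-4-11 and 0.56 in THP-1, beside 0, 0 and 0.06 for all genes. At 24 h it was -0.41, -0.19 and 0.26 in that order, beside 0, 0 and 0.04. Some genes of few reads were among the 20. THBD (thrombomodulin, which also steers fibrinolysis) rose from 10.9 to 68.3 CPM in MOLM-13 and from 14.5 to 252 CPM in MV-4-11 at 72 h. MRC2, the uPAR-associated endocytic receptor, rose in THP-1 from 319 to 969 CPM, and LRP1, which clears PLAU bound to its inhibitor, from 11.6 to 141 CPM. ENO1, a glycolytic enzyme that also binds plasminogen at the surface, fell in all 3 lines, by 1.58 on the log2 scale in MOLM-13 and by 1.45 in THP-1 at 72 h, and by 0.97 in MV-4-11 at 24 h.

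PLG, plasminogen itself, had no read in any library, and PLAT, the tissue activator, had at most 18 reads per library outside DB2313. With DB2313, PLAT rose to 88 and 99 reads (log2 fold change 3.39, SE 0.70, adjusted p = 0.000291). In THP-1 with DB2313, 14 of the 20 rose and 4 fell (all genes tested: 35.9% and 29.5%), and with PMA 10 rose and 1 fell (18.9% and 17.1%). ITGAM, the Mac-1 chain that pairs with PLAUR on monocytes, went from 27.6 CPM with DMSO to 224 CPM with PMA and 433 CPM with DB2313. A2M, which traps plasmin, rose from 6.55 to 677 CPM with PMA.

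Among 21 other serpins, 9 could be tested. SERPINI1 (neuroserpin, an inhibitor of tissue plasminogen activator) rose with BRM014 at 72 h in all 3 lines, from 12.7 to 59.7 CPM in MOLM-13, from 3.82 to 199 CPM in MV-4-11 and from 6.29 to 130.6 CPM in THP-1 (log2 fold changes 2.04, 5.64 and 4.31). AGT (angiotensinogen, a serpin without inhibitor activity) fell with it in MV-4-11 from 28.4 to 1.98 CPM and in THP-1 from 316 to 51.8 CPM, and in MOLM-13 from 84 reads over both DMSO libraries to 0. In the 72 h comparisons 3 rose and 4 fell in MOLM-13, against 4 and 3 for each of the other lines (all genes tested at 72 h: 28.4% to 30.9% rose, 26.1% to 29.4% fell). At 24 h the counts were 1 and 4, 3 and 2, and 3 and 3 (22.7% to 25.9% rose, 22.4% to 24.1% fell). With PMA 3 rose and none fell (18.9%, 17.1%), and with DB2313 6 rose and 2 fell (35.9%, 29.5%).

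Of 14 proteases that the members are known to inhibit, PLAU aside, 13 could be tested. The counts with BRM014 at 72 h were 6 rises and 4 falls in MOLM-13, 6 and 4 for MV-4-11, and 6 and 3 for THP-1 (all genes tested: 28.4% to 30.9% rose, 26.1% to 29.4% fell). At 24 h they were 5 and 3, 4 and 3, and 4 and 3 (22.7% to 25.9% rose, 22.4% to 24.1% fell). CTSL (cathepsin L, lysosomal) rose in all 6, from 4.35 to 82.9 CPM in MOLM-13, from 47.6 to 384 CPM in MV-4-11 and from 76.2 to 604 CPM in THP-1 at 72 h. CASP1, the inflammatory caspase, fell at 24 h in MOLM-13 and MV-4-11 (log2 fold changes -1.64 and -1.87) and at 72 h in THP-1 (-1.07), and rose with PMA (1.22, adjusted p = 2.94e-09). PMA gave 7 rises and 3 falls (18.9%, 17.1%) and DB2313 gave 4 and 6 (35.9%, 29.5%). Of the 7 other clade B serpins, 2 could be tested, SERPINB4 and SERPINB13, and neither passed in MOLM-13 or MV-4-11. In THP-1, SERPINB4 went from no read with DMSO to 15 and 13 at 72 h of BRM014 (adjusted p = 0.00649), and SERPINB13 from 2 and 3 reads to 24 and 15 with DB2313 (0.0251).

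Genes whose group means closely followed each member were found by Pearson's r of log2 CPM over the 11 groups, which share lines and so mix line and treatment. For PLAUR they were PITPNA (0.97), LINC00863 (0.96) and ADORA2A (0.96). For PLAU they were ELFN1 (0.97) and EPN1 (0.92). For SERPINB8 they were ESYT1 (0.95), DOCK2 (0.94) and WASF2 (0.94), and for SERPINB2 RBMS3, PAK5 and PRDM13 (each 0.98). SERPINB1 was nearest to MAVS, TMLHE and WASHC1 (0.95 to 0.96), SERPINB6 to SPIRE1, ZNF320 and LOC107985544 (0.99), and SERPINB10 to FSIP2 (0.97) and RWDD3 (0.94). SERPINB9 was nearest to the interferon-induced OAS3 (0.97) and HERC6 (0.95) and to LRRC4 (0.95). It had no read in MOLM-13 and group means of at most 3.12 CPM, so its r leans on values at or near the floor. SERPINA1 was nearest to CXorf38 (0.96) and GPR141 (0.95), followed by the interferon-induced MX1 (0.95). Among the members themselves, r was highest for SERPINB9 with SERPINA1 (0.83) and lowest for SERPINB1 with SERPINB2 (-0.79).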

How the data were processed

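The authors deposited 1 file of whole-number read counts per gene for each of 22 libraries of polyadenylated RNA. Per the submitters' processing notes, the tools were HISAT2 2.1.0, HTSeq and DESeq2 on hg38. The annotation and strand setting are not given in the sources used here. The 5 summary rows were left out of library sizes (no-feature reads 12.03% to 19.17%, ambiguous 3.04% to 3.82%). The counts were fitted in edgeR 4.0.16 (R 4.3.3): TMM, filterByExpr with minimum count 10, 1 coefficient for each of 11 groups, quasi-likelihood F tests, Benjamini-Hochberg adjustment over 16794 genes, call under 0.05; SE is the log2 fold change over the root of F. CPM uses reads in genes. The fit was tested on simulated data. Alternatives were DESeq2 1.42.0, other scalings, filters, sample sets and left-out libraries. Members and lists were chosen with earlier results of these data known. All 9 members were named. Of each list, the 3 genes with the smallest adjusted p in a comparison could be named, besides PLAT, PLG, ELANE, CTSG, PRTN3 and GZMB. For each member, genes among the 3 most like it over 11 groups were named. A few genes that these rules pick are not reported here.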

Additional observations from a re-analysis of the deposited data

Results flagged for a closer look

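The effect of BRM014 differed between the 3 lines by the F test of edgeR for 5 of the 9 genes at 24 h and 6 at 72 h. At 24 h the adjusted p was 0.0375 for PLAU, 0.00108 for PLAUR, 2.98e-10 for SERPINB1, 0.00473 for SERPINB10 and 2.5e-09 for SERPINB8. At 72 h it was 1.1e-07 for PLAU, 3.16e-12 for PLAUR, 1.09e-12 for SERPINB1, 2.8e-06 for SERPINB10, 0.0133 for SERPINB6 and 1.6e-11 for SERPINB8. SERPINB2 did not pass (0.508 at 24 h, 0.368 at 72 h), but its few reads outside THP-1 leave this test unable to decide. The PLAU difference at 24 h ended with a replicate block (0.0676) and when any of 9 of the 12 libraries was left out (up to 0.131). The SERPINB6 difference at 72 h ended without MOLM-13 BRM014 72 h replicate 2 (0.119) or MOLM-13 DMSO replicate 2 (0.149), libraries with 44 and 5 reads of the gene.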

How the results depend on the processing

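Of 67 called log2 fold changes of the 9 genes, 54 kept their call in every alternative run, 13 lost it in some and none changed direction. The number of members called in THP-1 at 24 h of BRM014, 6 of 9, ranged from 3 to 5 when 1 of its 4 libraries was left out, and the lone library of a group was then assumed to vary like the other groups. With a replicate block, the call of PLAU with DB2313 was lost (adjusted p = 0.074), as was that of PLAU between lines at 24 h (0.0676), and no other call of a member. Same-numbered libraries did not deviate together (correlations -0.12 to 0.0852 over 16 pairs of groups). This gave no sign that the numbers pair them, but cannot exclude it, since noise in genes of few reads lowers such correlations. With only the PMA and DMSO libraries fitted, 3038 genes were called with PMA in place of 6057. Scaling by library size alone moved the median of all genes by 0.16 in MOLM-13 at 72 h. No value that changed sign was called as reported. SERPINB1 in THP-1 at 24 h (0.01) became -0.0128 with DESeq2's size factors, -0.0256 without a filter, -0.0193 at a minimum count of 50, -0.0240 with those groups alone and -0.0150 in DESeq2, and ranged from -0.0647 to 0.0764 with 1 library left out. At 72 h (0.06) it became -0.0035 with those groups alone and ranged from -0.0149 to 0.116 with 1 library left out, and from 24 to 72 h (0.05) from -0.0197 to 0.116. SERPINA1 in MV-4-11 at 72 h (0.06) became -0.0399 with a replicate block and ranged from -0.87 to 0.64 with 1 library left out. PLAU with PMA (0.03) became -0.0531 by library size alone and ranged from -0.30 to 0.29. SERPINB2 in MOLM-13 at 72 h became 2.26 and was called (adjusted p = 8.23e-06) when summed with SERPINB10, whose reads then make up nearly all of it. SERPINB6 and PLAU in MV-4-11 at 72 h and SERPINB10 in MOLM-13 at 24 h, not called here, were called under 3, 3 and 5 of the alternatives. Depth limits SERPINB9, SERPINA1 and, outside THP-1, SERPINB2 and SERPINB10, which had few or no reads.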
